A study of Cucumis sativus with 2 samples.

Results

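The genes described here are the cucumber (Cucumis sativus) homologues of Arabidopsis ERF, RAP2, CRF, DREB2, TINY, DEAR, WIN1/SHN, PLETHORA and RAV/TEM transcription factors, 69 of the 20700 genes with counted reads. They were chosen by the symbol or description of the Arabidopsis homologue that the deposited table gives to each cucumber gene, and genes with DREB1 symbols, DRIP2, the release factors named ERF1-1 to ERF1-3 and homologues of the Arabidopsis locus AT5G52020 (ERF025) were left out. The 69 genes matched 41 Arabidopsis loci. A single gene, Csa7G432140, entered by its symbol WIN1 although its description is HOPW1-1-interacting 1, which is not an AP2/ERF factor, and it is kept in the counts (622 ventral and 248 dorsal reads, a log2 ratio of 0.23). Poly(A) RNA was sequenced from bending fruit at day 2 after anthesis, with 1 library for the ventral and 1 for the dorsal side. The labels give no cultivar, genotype or treatment for either library, and do not say how many fruits each holds. Without replicates no test between the sides can be made and no difference has a replicate check.

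AP2/ERF proteins share a DNA-binding domain named after APETALA2 and form one of the larger transcription factor families of plants. ERF factors bind the GCC box in promoters of ethylene- and jasmonate-induced genes, and DREB factors bind the dehydration-responsive element. In Arabidopsis, ethylene perceived by membrane receptors stabilises EIN3, which switches on ERF1 and other family members. The series title points to a family member, CsERF025, in bending fruit; the homologue of ERF025 is not among the 69 genes. The comparison asks which family members differ in transcript level between the sides. All gene names are those of Arabidopsis homologues, and the roles given are known from Arabidopsis.

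Counted reads numbered 21863715 (ventral) and 11893394 (dorsal). Each ratio is ventral over dorsal on the log2 scale, so that a positive value is higher in the ventral library, after scaling by the trimmed mean of M values (TMM), which put the depth of the ventral library at 2.13 times that of the dorsal. Brackets give the 95% exact binomial interval of a log2 ratio, which covers counting error only and not the spread between fruits. A gene was measured when both libraries together held at least 20 reads, and is called higher in a library when its ratio was at least 2-fold and its interval excluded equality. RPKM, the read number scaled to gene length and library size, is given as deposited and was not rescaled. The ratio of 2 RPKM values is therefore mostly shifted towards the ventral library. Over the measured genes described here, the median log2 ratio was 0.50 from RPKM and 0.26 after scaling. Of 5 carpel and fruit markers, the AG homologue had 77.5 ventral and 123 dorsal RPKM and the FUL homologue 80.6 and 141 RPKM. The other 3 were lower: the SPT homologues had 5.61 and 5.26 RPKM (Csa2G356640) and 1.84 and 0.56 RPKM (Csa6G491000), and CRC had 0.49 and 2.41 RPKM.

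Of the 69 genes, 56 were measured, on all 7 chromosomes and 1 scaffold. Of these 56, 17 were called higher in the ventral library, where 13.6% of all 17462 measured genes were, and 8 were called higher in the dorsal library, where 11.1% of all measured genes were. As shares, 30.4% of the measured family genes were called ventral-high and 14.3% dorsal-high, and 31 were called in neither direction. The median log2 ratio was 0.26, beside 0.03 for all measured genes, and single genes ran from -2.01 to 5.36. In bulk RNA, more cells of a type and more RNA per cell cannot be told apart.

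**Figure D1:**
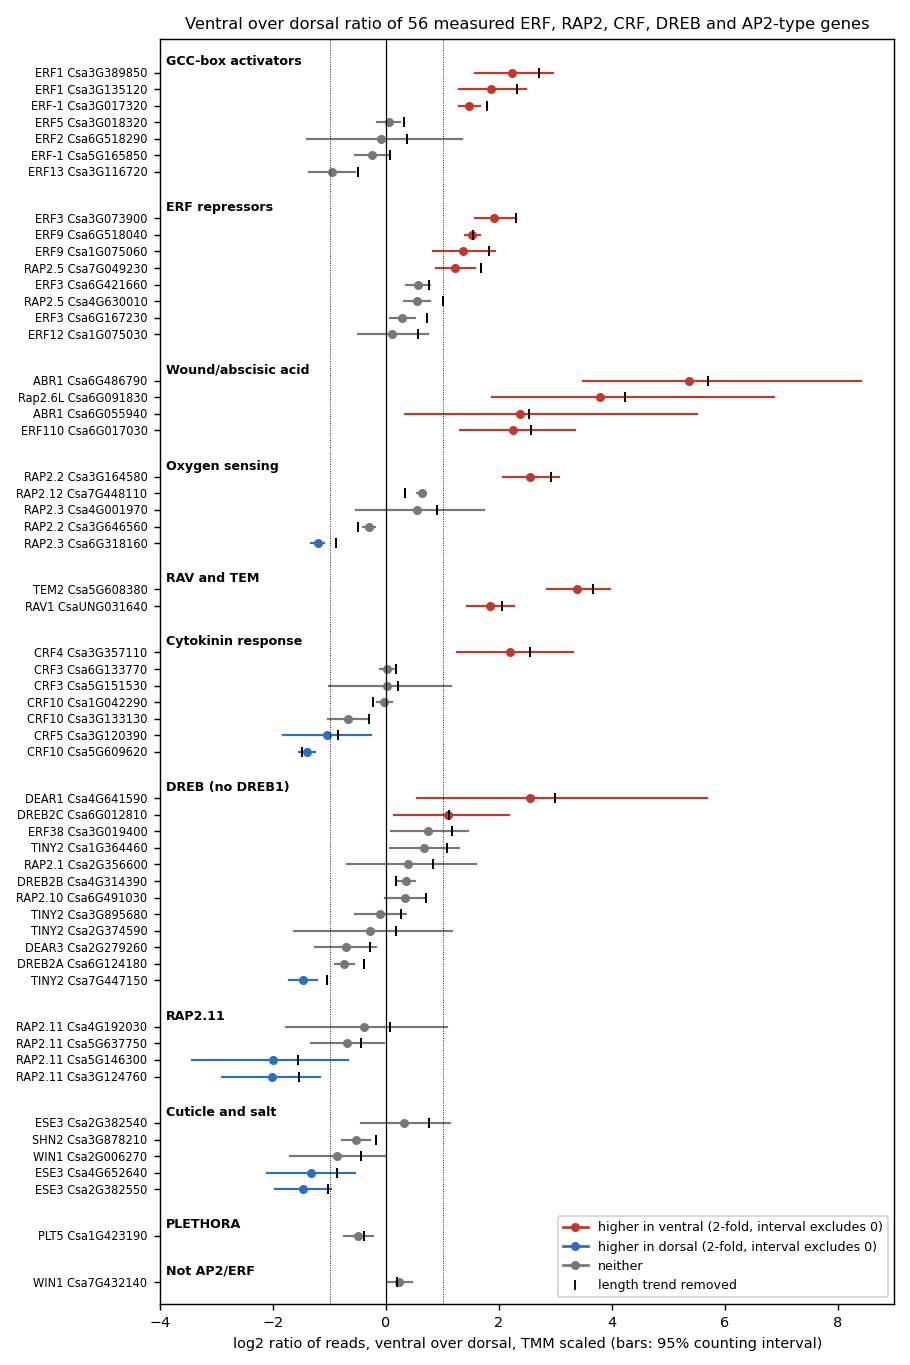
Log2 ratio of reads, ventral over dorsal, for each of the 56 measured genes (points) with its 95% counting interval (bars), grouped by subfamily; black ticks show the ratio with the trend on transcript length removed. The wound and abscisic acid group, the RAV and TEM genes and the ERF repressors lie to the right of 0, and the RAP2.11 copies to the left, where 1 tick of that group lies just above 0.

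Transcript length moved with the ratio in these libraries. Across all measured genes the ratio rose with exonic length, the length implied by reads and RPKM (Spearman correlation 0.39 across 17462 genes, which share both libraries and are not independent). Among the 56 family genes the same correlation was 0.06. Most of them are short: the median exonic length was 967 bp, against 1464 bp for all measured genes, and in 32 of 56 the exonic length was within 5% of the listed gene length. At 967 bp the trend over all genes lay at -0.37. Among the 3688 measured genes between 788 and 1216 bp, the middle of the family's own lengths, 8.51% were called ventral-high and 17.9% dorsal-high. With the trend removed, 20 family genes were called ventral-high (11.0% of all measured genes) and 5 dorsal-high (8.30% of all measured genes), and the family median was 0.35. All 17 genes called ventral-high kept that call, but this is no check on length. The trend was negative at each of their lengths, so removing it could only raise their ratios. The 3 gained were ERF38 (Csa3G019400), a TINY2 copy (Csa1G364460) and a RAP2.5 copy (Csa4G630010), at 1.16, 1.08 and 1.01. The dorsal calls lost were RAP2.3 (Csa6G318160), CRF5 (Csa3G120390) and an ESE3 copy (Csa4G652640), at -0.89, -0.85 and -0.86.

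**Figure D2:**
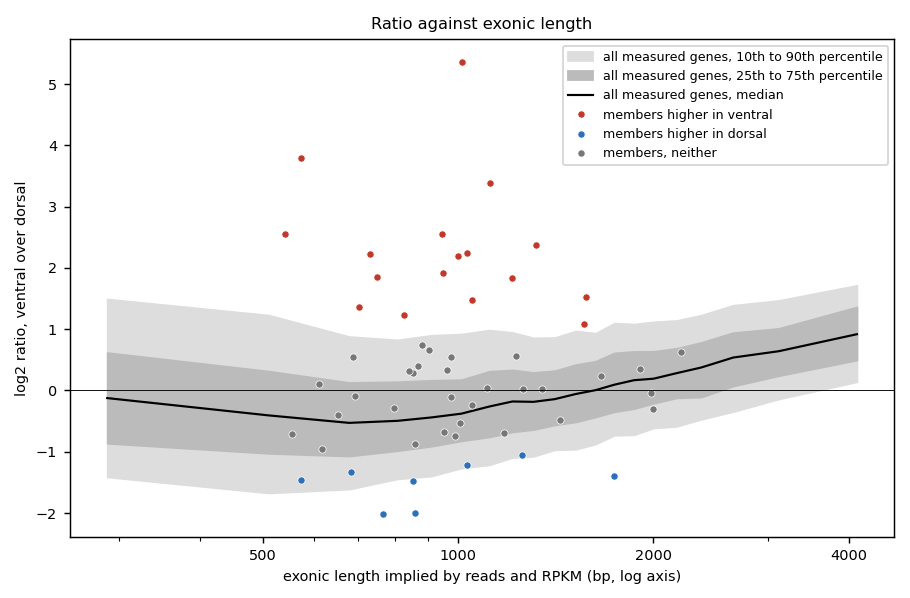
Log2 ratio, ventral over dorsal, against exonic length in bp (log axis) for the 56 family genes (points), over the median and percentile bands of all 17462 measured genes in bins of length. The genes called ventral-high spread over lengths from 540 to 1577 bp and lie above the median line of genes of their length.

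In transcript level, oxygen-sensing RAP2 factors, an ERF9 copy and an ERF-1 copy were the most abundant family members. By mean RPKM the order began with RAP2.3 (Csa6G318160, mean 85.3), RAP2.12 (Csa7G448110, 78.3), ERF9 (Csa6G518040, 58.7), RAP2.2 (Csa3G646560, 46.6), ERF-1 (Csa3G017320, 45.4), CRF3 (Csa6G133770, 44.8), DREB2A (Csa6G124180, 36.1) and a RAP2.5 copy (Csa4G630010, 32.7). With 1 library per side the spread that would separate neighbours in this order was not measured. The first place differed between the sides: RAP2.12 ranked first in the ventral library with 101 RPKM, and RAP2.3 ranked first in the dorsal library with 113 RPKM. The median of the mean RPKM was 8.41 for the family and 13.0 for all measured genes, and 21 of 56 members were at or above 13.0. The wound and abscisic acid group, described next, was expressed at low levels, at most 7.83 RPKM, whereas TEM2 (Csa5G608380) and the RAP2.2 copy Csa3G164580, also ventral-high, reached 27.0 and 23.3 RPKM in the ventral library.

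**Figure D3:**
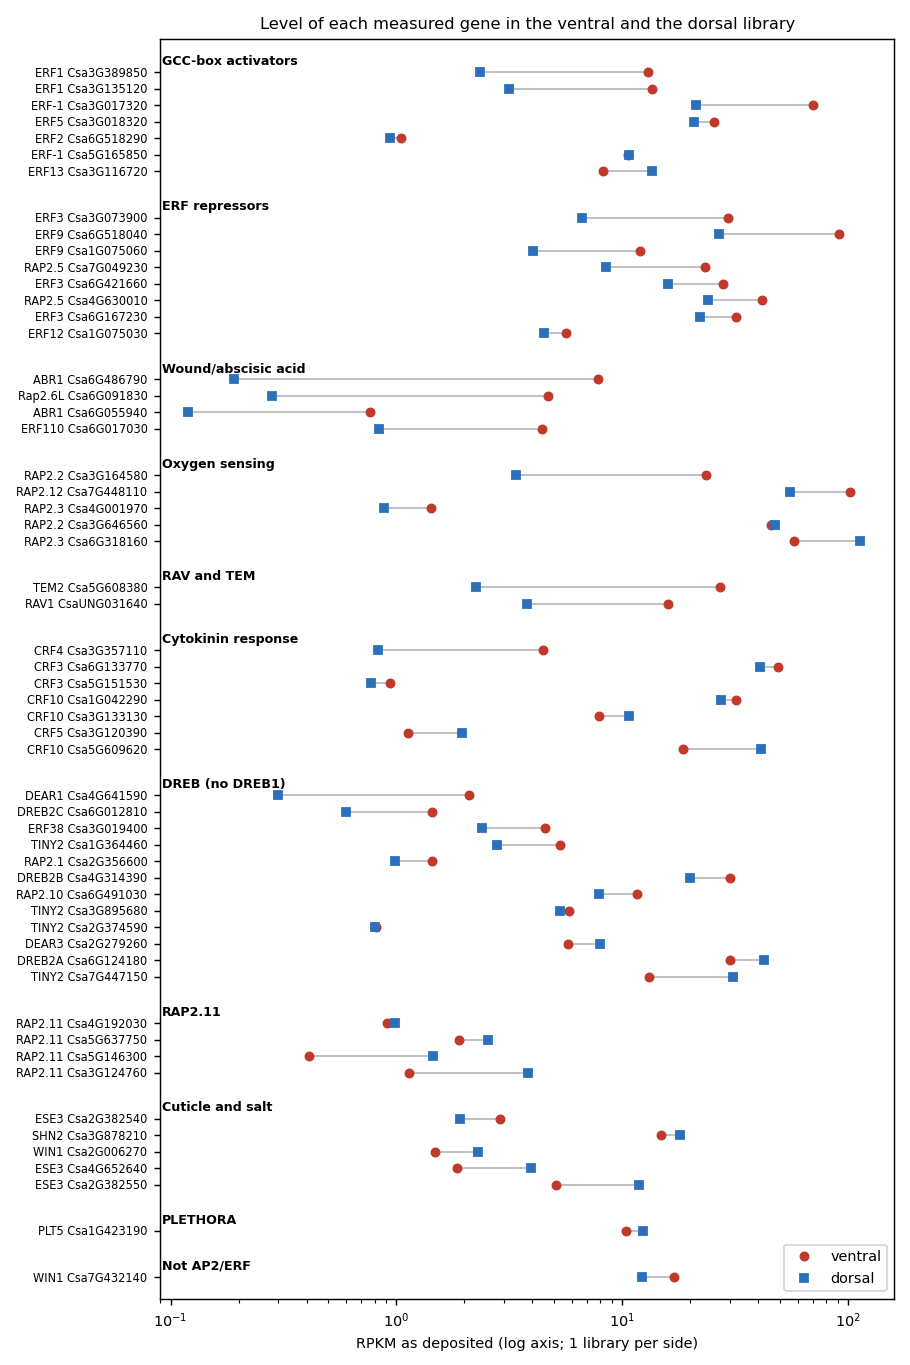
RPKM as deposited (log axis) of each measured gene in the ventral library (circles) and the dorsal library (squares), in the same order and groups as the plot of ratios. Levels range from 0.12 RPKM, an ABR1 copy in the dorsal library, to 113 RPKM, RAP2.3 in the dorsal library.

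The wound and abscisic acid group, homologues of ABR1, ERF110 and RAP2.6L, was the subfamily with the largest median log2 ratio, 3.08 over 4 measured genes, and all 4 were called higher in the ventral library. ABR1 represses responses to abscisic acid, and RAP2.6L takes part in tissue reunion of cut stems. ABR1 (Csa6G486790) had 175 ventral reads and 2 dorsal reads (7.83 and 0.19 RPKM), 41.0-fold more after scaling, with a log2 interval of [3.48 to 8.42]. The other ABR1 copy (Csa6G055940) had 22 and 2 reads, at 2.37 [0.34 to 5.50]. RAP2.6L (Csa6G091830) had 59 ventral and 2 dorsal reads, at 3.79 [1.87 to 6.87]. ERF110 (Csa6G017030), whose homologue acts in bolting time, had 101 ventral and 10 dorsal reads, at 2.24 [1.31 to 3.35]. These 4 genes together held 357 ventral and 16 dorsal reads, so the direction is read more firmly than the size. The second ERF110 copy (Csa2G297760) had 4 and 3 reads, at -0.68 [-3.24 to 2.09], and was not measured. The read minimum counts both libraries together. Both ABR1 copies and RAP2.6L, with 2 dorsal reads each, passed it through their ventral reads. A copy low in both libraries was dropped, so the call of all 4 measured genes partly reflects this filter.

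Both members of the RAV group, which carry a B3 domain beside the AP2 domain, were called higher in the ventral library. TEM2 (Csa5G608380) is a repressor of flowering that in Arabidopsis also represses gibberellin synthesis genes. It had 668 ventral reads and 30 dorsal reads (27.0 and 2.24 RPKM), 10.4-fold more after scaling, a log2 ratio of 3.38 [2.86 to 3.96]. RAV1 (CsaUNG031640), a regulator of growth, had 427 ventral and 56 dorsal reads, 3.58-fold more after scaling, a log2 ratio of 1.84 [1.43 to 2.27]. Their intervals do not overlap, so the excess of TEM2 was larger than that of RAV1 beyond counting error in these libraries.

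The ERF repressors, which hold an EAR motif in Arabidopsis and repress genes through the GCC box, all lay above 0. Of 8 measured genes 4 were called ventral-high, none dorsal-high and 4 neither, with a median log2 ratio of 0.89. All 8 remained above 0 with each of the 4 scalings compared and with the length trend removed, but these alternatives could hardly turn a sign. Scaling by total reads raised every ratio by 0.21, and the remaining scalings moved ratios little. The length trend was negative at the lengths of all 8, so its removal raised each ratio. ERF9 (Csa6G518040) had 3158 ventral reads and 514 dorsal reads (90.8 and 26.7 RPKM), at 1.53 [1.39 to 1.66]. Its second copy (Csa1G075060) had 186 and 34 reads, at 1.36 [0.83 to 1.93]. ERF3 (Csa3G073900) had 612 ventral and 76 dorsal reads, at 1.92 [1.57 to 2.28]. The other ERF3 copies were less far from 0: Csa6G421660 lay at 0.56 [0.35 to 0.77] and Csa6G167230 at 0.28 [0.06 to 0.51]. RAP2.5, another name of ERF4, was called ventral-high in 1 copy (Csa7G049230, 424 and 85 reads, 1.23 [0.89 to 1.58]) and not in the other (Csa4G630010, 629 and 202 reads, 0.55 [0.32 to 0.78]). ERF12 (Csa1G075030) had 76 and 33 reads, at 0.11 [-0.50 to 0.75].

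The GCC-box activators held ventral calls beside genes called in neither direction. Of 7 measured genes 3 were called ventral-high and none dorsal-high, 4 lay above 0, and the median log2 ratio was 0.05. With the length trend removed the same 3 were called, 6 of 7 lay above 0 and the median was 0.38. The trend was negative at the lengths of all 7, so its removal raised each ratio. ERF1, which joins ethylene and jasmonate signals in defence, was ventral-high in both measured copies. Csa3G389850 had 210 ventral and 21 dorsal reads, at 2.23 [1.58 to 2.95], and Csa3G135120 had 224 and 29 reads, at 1.86 [1.30 to 2.47]. The third ERF1 copy (Csa2G177210) had 19 ventral reads and 0 dorsal reads, under the minimum of 20; the lower bound of its log2 interval was 1.13, and against a floor of 3 reads in the dorsal library, with the ventral reads taken as exact, the ratio was 2.97-fold. ERF-1, a GCC-box binding activator distinct from ERF1, was called in 1 copy: Csa3G017320 had 1614 ventral and 273 dorsal reads (69.6 and 21.3 RPKM), at 1.47 [1.29 to 1.66], while Csa5G165850 had 247 and 137 reads, at -0.24 [-0.55 to 0.07]. ERF5 (Csa3G018320), an activator in pathogen and osmotic stress responses, had 621 and 282 reads, at 0.05 [-0.16 to 0.25]. ERF13 (Csa3G116720) lay just short of a dorsal call, with 112 ventral and 102 dorsal reads, at -0.96 [-1.36 to -0.56]. ERF2 (Csa6G518290) had only 16 and 8 reads, at -0.09 [-1.40 to 1.34].

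The oxygen-sensing factors, which are degraded in normal oxygen and activate fermentation genes when oxygen is low, went in both directions. Of 5 measured genes 1 was called in each direction (20%, beside 13.6% ventral-high and 11.1% dorsal-high of all measured genes). RAP2.2 (Csa3G164580) had 486 ventral reads and 39 dorsal reads (23.3 and 3.38 RPKM), 5.84-fold more after scaling, a log2 ratio of 2.55 [2.08 to 3.06]. The more abundant RAP2.2 copy (Csa3G646560) had 2004 and 1159 reads, at -0.30 [-0.41 to -0.20]. RAP2.3 (Csa6G318160) had 1313 ventral and 1427 dorsal reads (57.7 and 113 RPKM), at -1.21 [-1.32 to -1.10]; scaled by total reads, from RPKM or with the length trend removed, it was short of 2-fold. RAP2.12 (Csa7G448110) had 4930 and 1496 reads, at 0.63 [0.54 to 0.71], and the second RAP2.3 copy (Csa4G001970) 31 and 10 reads, at 0.54 [-0.53 to 1.73].

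Cytokinin response factors, which act beside the response regulators downstream of cytokinin, also had calls in both directions. Of 7 measured genes 1 was called ventral-high (14.3%, beside 13.6% of all measured genes) and 2 dorsal-high (28.6%, beside 11.1%). With so few genes, these counts are not read as a trait of the group. The median was -0.03, and it turned to 0.18 when libraries were scaled by total reads. CRF4 (Csa3G357110) had 98 ventral and 10 dorsal reads, at 2.20 [1.26 to 3.31]. CRF10 (Csa5G609620) had 711 ventral reads and 878 dorsal reads (18.6 and 41.3 RPKM), at -1.40 [-1.54 to -1.25]. The other CRF10 copies lay at -0.03 [-0.17 to 0.10] (Csa1G042290, 1383 and 664 reads) and -0.68 [-1.03 to -0.34] (Csa3G133130, 166 and 125 reads). CRF5 (Csa3G120390), at -1.05 [-1.82 to -0.27], rested on 31 ventral and 30 dorsal reads, and was short of 2-fold when scaled by total reads, from RPKM and with the length trend removed. Both CRF3 copies lay at 0.02, with 1451 and 669 reads in Csa6G133770 and 26 and 12 in Csa5G151530.

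In the DREB subfamily without DREB1, 9 of 12 measured genes were called in neither direction, 2 ventral-high and 1 dorsal-high, with a median log2 ratio of 0.34. The called shares, 16.7% ventral-high and 8.33% dorsal-high, were near the 13.6% and 11.1% of all measured genes. DEAR1 (Csa4G641590), a DREB protein with a repression motif, had 25 ventral and 2 dorsal reads, at 2.55 [0.55 to 5.67]. With 2 dorsal reads, DEAR1 too passed the read minimum through its ventral reads, so its call partly reflects this filter. DREB2C (Csa6G012810), a factor of heat responses, had 50 and 11 reads, at 1.09 [0.13 to 2.18], close to the 2-fold limit. DREB2A (Csa6G124180), the main drought- and heat-induced DREB2 factor, had 652 ventral and 512 dorsal reads (29.9 and 42.2 RPKM), at -0.74 [-0.91 to -0.57], and DREB2B (Csa4G314390) 1264 and 465 reads, at 0.35 [0.20 to 0.51]. Their intervals do not overlap. TINY2, a stress factor related to a repressor of growth, was called dorsal-high in the most abundant of its 4 measured copies (Csa7G447150, 247 ventral and 322 dorsal reads), at -1.47 [-1.72 to -1.23]. The remaining TINY2 copies were Csa1G364460 at 0.67 [0.08 to 1.30], Csa3G895680 at -0.10 [-0.55 to 0.36] and Csa2G374590 at -0.28 [-1.64 to 1.18]. RAP2.1 (Csa2G356600, 28 and 10 reads), RAP2.10 (Csa6G491030, 247 and 92 reads) and DEAR3 (Csa2G279260, 70 and 54 reads), relatives of DEAR1, lay at 0.39, 0.33 and -0.72. ERF38 (Csa3G019400) had 89 ventral and 25 dorsal reads, at 0.74 [0.09 to 1.44].

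Most RAP2.11 copies and most cuticle and salt factors had ratios below 0. So did most measured genes in the middle of the family's lengths: of the 3688 between 788 and 1216 bp, 1233 lay above 0. The median ratio of those 3688 genes was -0.35. RAP2.11 regulates the response to low potassium, and all 4 measured copies were below 0, though Csa4G192030 (13 and 8 reads) came to 0.07 with the length trend removed. Csa3G124760 had 19 ventral and 36 dorsal reads, at -2.01 [-2.90 to -1.17], and Csa5G146300 had 8 and 15 reads, at -2.00 [-3.44 to -0.67]. The fourth copy, Csa5G637750, had 49 and 37 reads, at -0.69 [-1.33 to -0.03]. With 8 ventral reads, Csa5G146300 passed the minimum of 20 largely through its dorsal reads. Another copy, Csa4G268100, with 2 ventral and 0 dorsal reads, was dropped. The shared direction of the 4 measured copies and the dorsal call of Csa5G146300 thus partly reflect this filter. All RAP2.11 levels were low, at most 3.82 RPKM. Among 5 measured cuticle and salt factors, 2 were called dorsal-high and none ventral-high. They were the ESE3 copies Csa2G382550, with 64 ventral and 83 dorsal reads at -1.47 [-1.96 to -0.98], and Csa4G652640, with 28 and 33 reads at -1.33 [-2.11 to -0.56]. With the length trend removed the first alone was called, and Csa4G652640 lay at -0.86. ESE3 is induced by ethylene and salt. The ESE3 copy with the identifier next to the first, Csa2G382540, lay at 0.31 [-0.45 to 1.13] with 53 and 20 reads. SHN2 (Csa3G878210), a relative of the wax regulator WIN1, had 328 and 222 reads, at -0.53 [-0.78 to -0.28], and WIN1 itself (Csa2G006270) 28 and 24 reads, at -0.87 [-1.71 to -0.02]. With the length trend removed the intervals of both included 0, SHN2 at -0.19 [-0.44 to 0.06] and WIN1 at -0.44 [-1.28 to 0.41]. So did that of the RAP2.11 copy Csa5G637750, at -0.45 [-1.10 to 0.21].

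Of the PLETHORA genes, which control stem cells and organ initiation, 1 of 4 was measured. PLT5 (Csa1G423190) had 328 ventral and 216 dorsal reads, at -0.49 [-0.74 to -0.24]. PLT2 (Csa4G290800) and a PLT3 homologue (Csa3G114470) had 1 ventral read each and 0 dorsal reads, and the neighbouring PLT3 homologue (Csa3G114480) had 0 ventral reads and 1 dorsal read. A library with 0 reads of a gene leaves room for up to 3, or 0.137 CPM (reads scaled to library total) for the ventral and 0.252 CPM for the dorsal one. The other genes not measured were ERF53 (Csa7G047400, 13 and 1 reads), ESE2 (Csa3G455120), CRF6 (Csa6G042450), copies of ERF13 (Csa3G116730), RAP2.11 (Csa4G268100) and ESE3 (Csa4G006210), and WIN1 copies Csa1G340430 and Csa4G004960.

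Some cucumber copies that share an Arabidopsis homologue differed from each other in ratio. Of 13 homologues with at least 2 measured copies, 8 had copies whose highest and lowest ratios had intervals that did not overlap. The same share over all homologues of the deposited genes was not computed, so this count is not read as a trait of the family. The intervals cover counting error only and narrow as reads rise. The widest gap of these 8 was between the RAP2.2 copies, 2.85 on the log2 scale, followed by the TINY2 copies with 2.14. For TINY2, RAP2.3, RAP2.11, ESE3 and CRF10 the copy or copies called dorsal-high stood beside copies called in neither direction, and no homologue had copies called in opposite directions. The copies of ERF9, ERF1 and CRF3 lay within 0.17, 0.37 and 0.0015 of each other. The CRF3 gap is not known that closely, since Csa5G151530 had 26 and 12 reads and an interval of [-1.01 to 1.14]. Since the counting tool is not given in the sources used here, reads shared between near-identical copies could have been split or dropped.

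**Figure D4:**
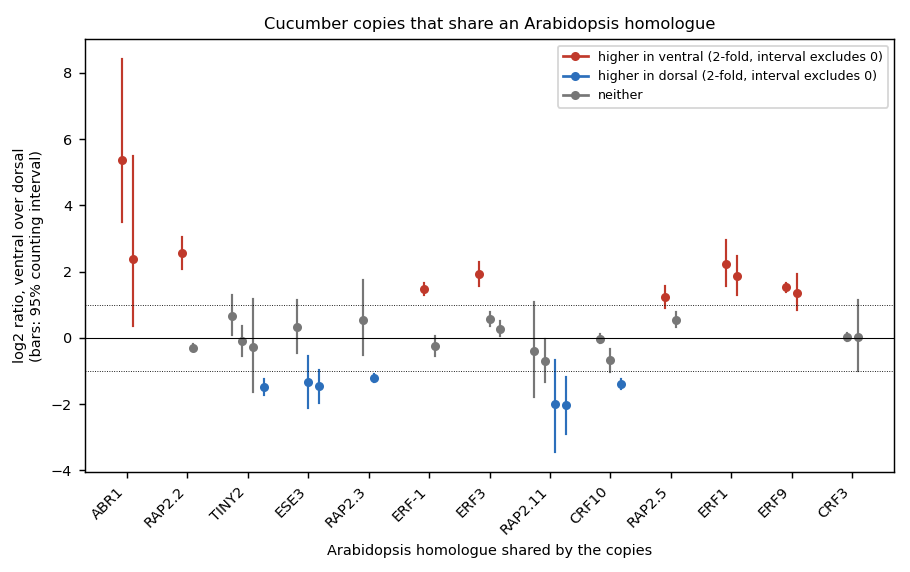
Log2 ratio, ventral over dorsal, with 95% counting intervals for each measured copy of 13 Arabidopsis homologues, ordered by the gap between the highest and lowest copy. ABR1, ERF1 and ERF9 have every measured copy called ventral-high; RAP2.2, ERF-1, ERF3 and RAP2.5 have 1 copy so called beside copies that are not.

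Around these factors, genes of ethylene signalling stood higher in the ventral library. Of 14 measured signalling genes, 9 were called ventral-high and none dorsal-high, and all 14 ratios were above 0, with a median of 1.27. The highest ratio was that of the receptor gene ETR2 (Csa3G141850), with 2362 ventral reads and 178 dorsal reads, at 2.64 [2.42 to 2.87]. The 3 homologues of the EIN3-binding F-box protein EBF1, listed as FBL6, lay at 2.18 (Csa3G878200), 2.04 (Csa2G381760) and 1.94 (Csa2G006790). EIN3 (Csa1G601520) had 4197 and 638 reads, at 1.63 [1.50 to 1.75]. These transcripts are long, with a median exonic length of 2848 bp, and with the length trend removed 6 of 14 were called ventral-high, the median was 0.81 and 11 lay above 0. Of 8 measured ethylene synthesis genes 2 were called ventral-high: ATACS6 (Csa4G049610), an ACC synthase, had 665 and 8 reads, at 5.28 [4.30 to 6.50], and ATACO1 (Csa2G000520), an ACC oxidase, 176 and 33 reads, at 1.32 [0.78 to 1.91]. The ACC oxidase with the highest level (Csa6G160180, listed as EFE) lay at -0.52 [-0.60 to -0.44].

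Defence genes of the kinds that ERF factors activate through the GCC box (chitinases, glucanases, PR4 and osmotin) were called in part. Of 10 measured, 3 were called ventral-high and none dorsal-high, with a median of 0.35. The chitinase gene CHIA (Csa5G139760) had 178 ventral and 2 dorsal reads, at 5.38 [3.51 to 8.44]. The PR3 chitinase copies Csa6G507520 and Csa6G509040 lay at 1.36 [0.80 to 1.96] and 1.32 [0.89 to 1.77]. With the length trend removed Csa6G509040 lay at 0.81 and lost its call, and another CHIA copy (Csa5G139730) gained one at 1.12 [0.28 to 2.05]. In that form 3 of 10 were again called ventral-high and the median was 0.74. Of 13 measured genes of the hypoxia response and the oxygen-sensing pathway, 5 were called ventral-high and 2 dorsal-high, with a median of 0.61. At the ends were a pyruvate decarboxylase homologue (Csa3G730980) at 2.40 [1.93 to 2.91] and the haemoglobin NSHB1 (Csa2G238880) at -1.77 [-2.00 to -1.55]; with the length trend removed, 4 and 2 were called.

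Cuticle genes and type-A response regulators had dorsal calls. Of 13 measured cuticle genes 4 were called dorsal-high and none ventral-high, with a median of -0.11, and all 4 lay near the limit, between -1.16 and -1.08. The same 4 were called with the length trend removed, between -1.52 and -1.01. Of 8 measured type-A response regulators, which cytokinin induces, 4 were called dorsal-high and none ventral-high, with a median of -0.90. RR17 (Csa5G223020) had 48 ventral reads and 164 dorsal reads, at -2.86 [-3.36 to -2.39], and ATRR4 (Csa3G822100) 1570 and 2419 reads, at -1.72 [-1.81 to -1.62]. With the length trend removed 2 of the 8 were called dorsal-high.

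**Figure D5:**
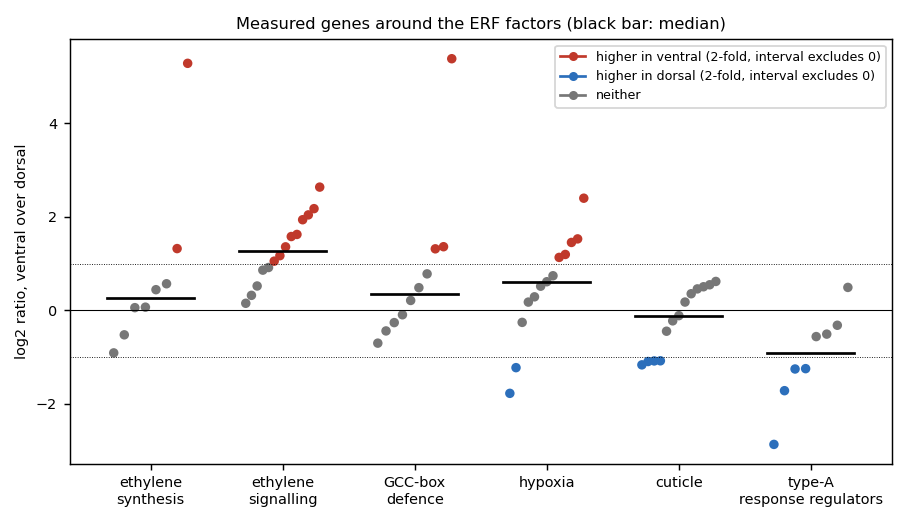
Log2 ratio, ventral over dorsal, of measured genes in 6 lists around the ERF factors, with the median of each list as a black bar. Ethylene signalling genes lie at or above 0.15, and all type-A response regulators but 1 lie below 0.

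Some markers of cell types also differed between the libraries. Of 36 genes matched as green tissue markers, 4 were called ventral-high and 17 dorsal-high, with a median log2 ratio of -0.98. Their summed level was 17051 ventral and 33409 dorsal RPKM. The pattern also caught a phosphoserine aminotransferase gene (PSAT) and a pair of phospholipid sterol acyltransferase genes (PSAT1), which are 3 of the 4 called ventral-high. With the length trend removed, 3 of the 36 were called ventral-high and 13 dorsal-high, and the median was -0.72. Of 5 measured xylem markers 3 were called dorsal-high, with sums of 28.6 ventral and 60.3 dorsal RPKM. Of 19 phloem markers 1 was ventral-high (5.26%, beside 13.6% of all measured genes) and 3 dorsal-high (15.8%, beside 11.1%). The phloem sums were 7233 ventral and 7964 dorsal RPKM. Epidermis markers had 1 of 5 called in each direction, with sums of 120 ventral and 84.2 dorsal RPKM. Of 5 carpel markers 1 was ventral-high and 2 dorsal-high, with sums of 166 ventral and 272 dorsal RPKM. Among ovule markers BEL1 (Csa5G152860) alone was measured, at 0.97 [0.17 to 1.86], and the INO homologues had at most 3 reads in a library. The part of cell makeup in the ratios of the ERF, RAP2, CRF and AP2-type genes was not tested.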

How the data were processed

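Per the labels, libraries were strand-specific and made from poly(A) RNA, 1 per side. The submitters' processing notes list TopHat2 and edgeR without versions; the genome build, the annotation, the counting tool and its strand setting were not given in the sources used here. The authors deposited whole-number read counts per gene without normalization, and, in a second table, RPKM values that they had scaled for length and depth. Genes are named by the Arabidopsis homologue in those tables.

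From the deposited counts, libraries were scaled by TMM over all genes (edgeR 4.0.16, R 4.3.3), and ratios and exact conditional binomial (Clopper-Pearson) 95% intervals were computed with SciPy 1.17.1. Reads without molecular identifiers are not independent molecules, so intervals and floors (3 reads) cover counting error only. Exonic length was taken as reads over RPKM, up to a constant set so that the 99.5th percentile of implied over listed length, among genes with at least 10 RPKM in both libraries, equals 1. The length trend was a lowess curve (fraction 0.3, statsmodels 0.14.6) over all measured genes. The calculation was tested on simulated data. Named are all members called in either form, the 8 most abundant, copies of a homologue with a called copy, and the ends of context lists; beyond that rule, remaining members were named to account for all. The members, lists and alternatives were chosen with earlier results of these data known. Subfamilies were assigned by Arabidopsis locus from general knowledge.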

Additional observations from a re-analysis of the deposited data

How the results depend on the processing

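No paired analysis was possible because only 1 library was made per side, and no library could be left out. Scaling over measured genes alone was chosen after seeing the data. The 17 ventral calls stayed within 1.5 times under all alternatives run, between 13 and 20. The 8 dorsal calls became 5 with the length trend removed, 4 with a minimum of 100 reads, where fewer genes are tested, and 14 at 1.5-fold; elsewhere they numbered 6 to 8. Scaling by total reads or by RPKM, which raises ratios, ended the dorsal calls of CRF5 and RAP2.3, and a 99% interval ended the ventral calls of DREB2C and the ABR1 copy Csa6G055940. Total reads raised every log2 ratio by 0.21. The family median of 0.26 became 0.47 with total reads and 0.50 from RPKM, and lay between 0.23 and 0.35 otherwise. No call changed sign. Genes with few reads (ABR1, RAP2.6L, DEAR1, RAP2.11) have wide intervals, so depth limits their fold sizes.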
